A study of Rattus norvegicus with 12 samples.

Results

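The microRNAs (miRNAs) rno-miR-143, rno-miR-143* and rno-miR-145 are made from 2 neighbouring precursors and were followed in Kupffer cells, the macrophages that reside in the liver. They were selected on measured values: the authors listed 30 miRNAs whose basal level with ethanol feeding was lower by 2-fold or more than with pair feeding, and these 3 of the 30 were grouped for their shared locus. The difference between the diets is therefore what chose them, and it is described here with no test. Small RNA was sequenced from primary Kupffer cells of adult male Wistar rats after 4 weeks of a liquid diet, with or without ethanol. The control rats were pair-fed, so that maltose dextrin took the place of ethanol in their diet. Values of these miRNAs were read from 6 of the 12 libraries of the series, 3 from pair-fed and 3 from ethanol-fed rats, all from basal cultures without HA35, a fragment of hyaluronic acid. The sample labels number each group by day, from 1 to 3. Whether the cells of a day came from 1 rat or from a pool is left unstated, so any spread or p-value measures only these libraries, and their spread may be technical. A separate list of 3 miRNAs at least 2-fold higher with HA35 in cells from ethanol-fed rats holds none of the 3 members, and their levels with HA35 were not analysed here.

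A miRNA is cut as a duplex from a hairpin precursor. The arm loaded into an Argonaute protein guides it to messenger RNAs that pair with the seed, bases 2 to 8, and the other arm, the star strand, is usually the less abundant. In mouse and human, miR-143 and miR-145 are transcribed from a common locus and are known for their high levels in smooth muscle and other mesenchymal cells, among them vascular wall cells, where miR-145 represses KLF4 and miR-143 represses ELK1. In liver, hepatic stellate cells are a mesenchymal cell type that neighbours the Kupffer cell. In a bulk library, fewer cells of a type and less RNA per cell cannot be told apart.

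The table names carry no arm for the 3 members. The number at the end of each deposited ID was compared with the order of the arms along the chromosome in RefSeq (build GRCr8). Both agreed for 4 of the 4 table names that state an arm and have both arms in RefSeq, and by the same order rno-miR-143 is the 3p arm, rno-miR-143* the 5p arm and rno-miR-145 the 5p arm. The mature sequences are shown to make plain that the 3 products have separate seeds, written in capitals.
rno-miR-143-3p (rno-miR-143): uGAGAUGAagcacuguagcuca
rno-miR-143-5p (rno-miR-143*): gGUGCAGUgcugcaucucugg
rno-miR-145-5p (rno-miR-145): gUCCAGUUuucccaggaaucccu

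None of the other rat mature sequences among the 724 in the RefSeq set used here has the seed of miR-143, of miR-143* or of miR-145, so the members are linked by locus and not by a common seed. The remaining arm, miR-145-3p, is not in the list of 30 and was not analysed here. The hairpins below show both arms of each precursor in capitals, since 2 of the 3 members are the opposite arms of the same hairpin.
Mir143: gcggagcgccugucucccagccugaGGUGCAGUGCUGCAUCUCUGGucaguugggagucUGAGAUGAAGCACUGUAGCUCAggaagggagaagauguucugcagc
Mir145: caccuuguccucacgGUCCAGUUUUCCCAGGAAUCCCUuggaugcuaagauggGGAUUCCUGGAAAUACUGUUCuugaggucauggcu

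In GRCr8, Mir143 lies at chr18:57371349-57371453 and Mir145 at chr18:57369983-57370070, both on the minus strand, with 1278 bases between them. Both fall within the span of the long non-coding RNA gene Carmn, also named Mir143hg, at chr18:57368191-57389112, and whether they are exonic or intronic there was not analysed here. In the minimum free energy fold, 16 base pairs join the arms of Mir143 and 17 those of Mir145. The authors aligned their reads to the older build rn4, so these positions describe the locus and not their alignment.

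In the library values, all 3 members were highest in the pair-fed library of day 1 and lowest in the ethanol-fed library of day 1. Each value is a normalized log2 level with the median of that miRNA over the 6 basal libraries set to 0, so it compares libraries within a miRNA and not one miRNA with another. rno-miR-143, the guide strand, was at 2.24, -0.57 and 0.54 on days 1, 2 and 3 in cells from pair-fed rats, and at -2.14, 0.76 and -0.54 in cells from ethanol-fed rats. The groups overlapped, as the ethanol-fed library of day 2 was the second highest of the 6 and the pair-fed library of day 2 the second lowest. Its mean was 0.74 ± 1.41 (SD, n = 3) with pair feeding and -0.64 ± 1.45 (SD, n = 3) with ethanol feeding, a difference of -1.38 on the log2 scale, or 2.60-fold lower.

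rno-miR-145, the product of the neighbouring hairpin, was at 1.57, -0.20 and 0.40 on days 1 to 3 in pair-fed libraries, and at -2.95, 0.20 and -0.39 in ethanol-fed libraries. The ethanol-fed library of day 1 lay far below the other 5, and the ethanol-fed library of day 2 was above the pair-fed library of the same day. The mean was 0.59 ± 0.90 (SD, n = 3) with pair feeding and -1.05 ± 1.68 (SD, n = 3) with ethanol feeding, a difference of -1.63, or 3.11-fold lower.

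rno-miR-143*, the star strand of the Mir143 hairpin, was at 0.65, -0.11 and 0.11 in pair-fed libraries and at -2.34, 0.27 and -0.38 in ethanol-fed libraries. Its pair-fed libraries lay close together, and its ethanol-fed library of day 1 was the only one of the 6 more than 1 log2 unit from the median. Whether that value is the lowest the data can hold, and rests on few reads or none, was not tested. The mean was 0.22 ± 0.39 (SD, n = 3) with pair feeding and -0.82 ± 1.36 (SD, n = 3) with ethanol feeding, a difference of -1.03, or 2.05-fold lower. This is close to the 2-fold cut-off of the list, with only miR-541 (2.03-fold) and miR-214 (2.03-fold) nearer to it, and miRNAs outside the cut-off were not analysed here.

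**Figure D1:**
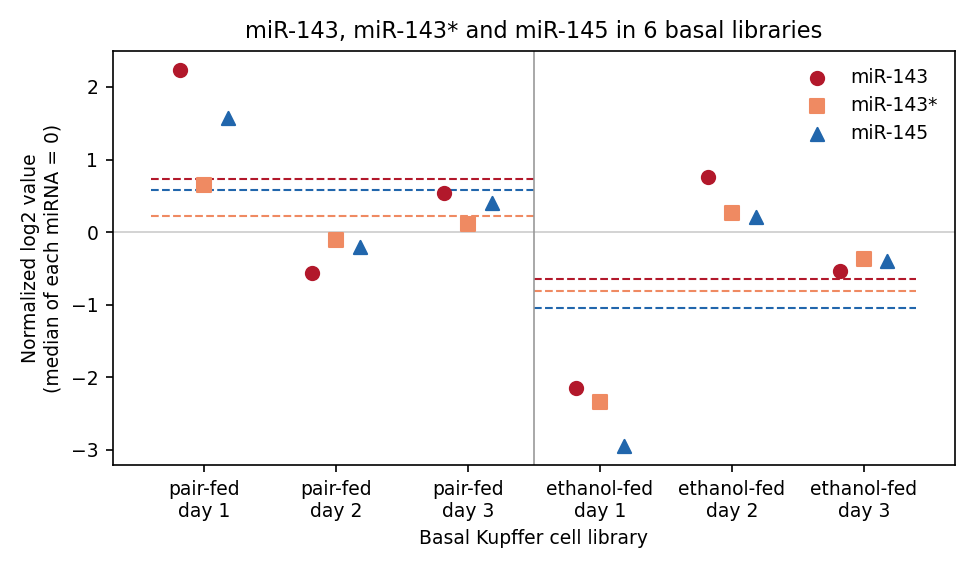
Normalized log2 value of miR-143, miR-143* and miR-145 (y axis, median of each miRNA set to 0) in each of the 6 basal Kupffer cell libraries (x axis). Points are single libraries and dashed lines are group means. The pair-fed library of day 1 holds the highest value of each miRNA (0.65 to 2.24) and the ethanol-fed library of day 1 the lowest (-2.95 to -2.14), and the groups overlap for all 3.

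In 0 of the 3 members did the pair-fed and ethanol-fed libraries separate without overlap, where 7 of the 30 miRNAs of the list did (23.3%). Across the list, limma called 0 of 30 miRNAs (0%) at an adjusted p of 0.05, with 6 of 30 at an unadjusted p under 0.05. Without moderation of the variance, the same linear model also called 0 and had 2 at an unadjusted p under 0.05. The list was selected for this difference, so these counts give its background only and nothing is read from them about the members.

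The 3 members moved alike from day to day. On day 1 the ethanol-fed library was below the pair-fed library by -4.38 for miR-143, -4.52 for miR-145 and -2.99 for miR-143* (ethanol-fed minus pair-fed, log2). On day 2 it was above it for all 3, by 1.33, 0.41 and 0.38 in the same order. On day 3 it was below it again, by -1.08, -0.79 and -0.48. The sign of the difference was thus the same in the 3 products on each day, but it was not the same on the 3 days for any of them. The mean over days was -1.38 ± 2.87 (SD of 3 day differences) for miR-143, -1.63 ± 2.57 for miR-145 and -1.03 ± 1.75 for miR-143*. In each, the spread between days was larger than the mean difference. This spread rests on pairing the libraries by day number, and the labels do not say whether those of a day were prepared together.

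The other 27 miRNAs of the list had a median day 1 difference of -2.61, a median of -0.43 on day 2 and of -0.66 on day 3. On day 2, 7 of these 27 were higher in the ethanol-fed library, up to 0.64. This was below the 1.33 of miR-143 but above the 0.41 of miR-145 and the 0.38 of miR-143*. All 7 were lower on days 1 and 3, so they had the same signs as the members on each day. Among them were miR-455, miR-497, miR-195* and miR-126*, from other loci. Of the 30 miRNAs, 14 were lower in ethanol-fed libraries on all 3 days, and none of the 3 members was among them.

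**Figure D2:**
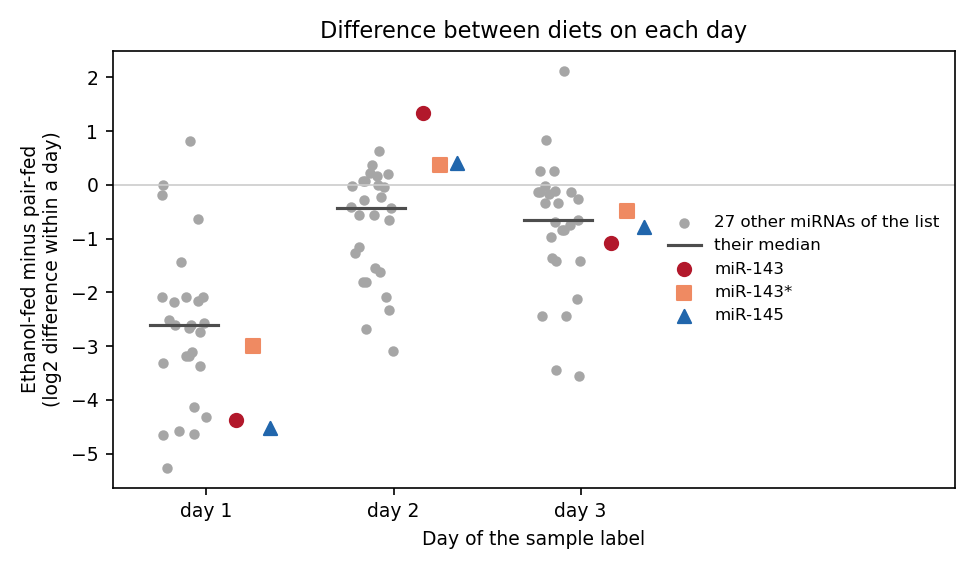
Ethanol-fed minus pair-fed log2 value within each day (y axis) for days 1 to 3 (x axis). Coloured symbols are the 3 members, grey points the other 27 miRNAs of the list, spread sideways for legibility, and black lines their medians (-2.61, -0.43 and -0.66). The members lie between -4.52 and -2.99 on day 1, between 0.38 and 1.33 on day 2 and between -1.08 and -0.48 on day 3.

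The day 1 libraries carried the difference between the diets in all 3 members. Without day 1 of both groups the difference was 0.12 for miR-143, -0.19 for miR-145 and -0.05 for miR-143*, against a median of -0.64 for the other 27 miRNAs of the list. Of the 30, 6 were still lower by 2-fold or more, some of them with a lowest value shared by several libraries, such as miR-541 and miR-152*. Without the ethanol-fed library of day 1 alone the difference was -0.63 for miR-143, -0.68 for miR-145 and -0.27 for miR-143*. Without the pair-fed library of day 1 alone it was -0.63, -1.14 and -0.82 in the same order. The star strand thus depended mostly on the ethanol-fed library of day 1, and miR-143 on both libraries of that day to the same extent. The libraries of day 2 acted in the opposite way. Without the ethanol-fed library of day 2 the differences were -2.08 for miR-143, -2.26 for miR-145 and -1.57 for miR-143*, and without the pair-fed library of day 2 they were -2.03, -2.03 and -1.20. Leaving out day 2 of both groups gave the widest differences, -2.73, -2.66 and -1.74, and with a single library left out the groups ceased to overlap in at most 2 of the 3 members (2 without the ethanol-fed and 1 without the pair-fed library of day 2). Without day 2 of both groups they ceased to overlap in all 3.

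**Figure D3:**
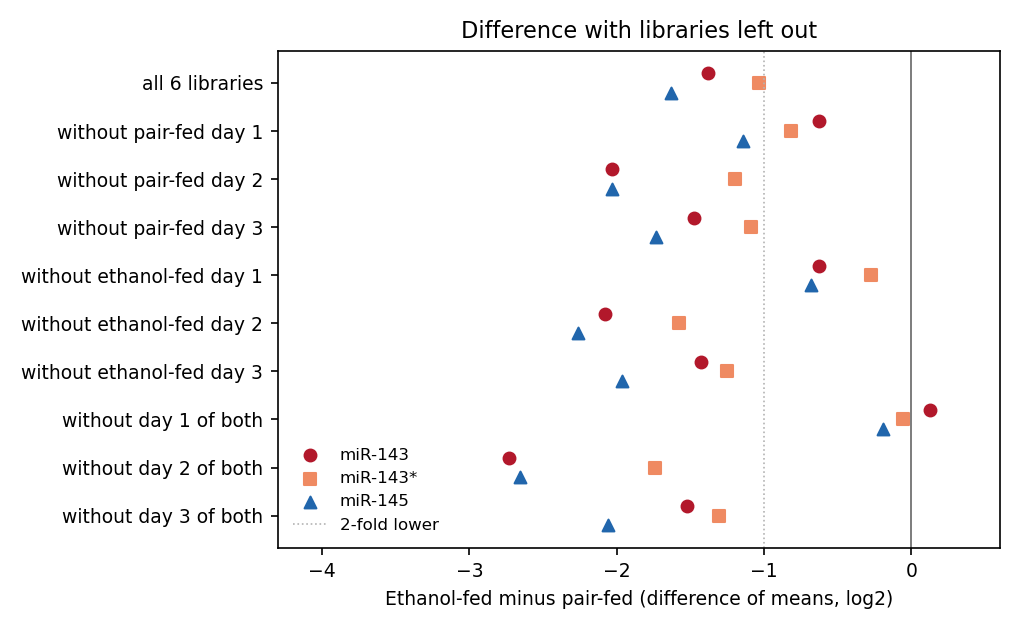
Difference between the group means of ethanol-fed and pair-fed basal libraries (x axis, log2) for miR-143, miR-143* and miR-145 with all 6 libraries and with the libraries named on the y axis left out. The dotted line marks 2-fold lower. All 3 members lie between -0.19 and 0.12 without day 1 of both groups and between -2.73 and -1.74 without day 2 of both groups.

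Within its group, each day 1 library was set against the mean of the libraries of days 2 and 3. The ethanol-fed library of day 1 was lower than the other 2 by -2.25 for miR-143, -2.86 for miR-145 and -2.28 for miR-143* (log2). These offsets are at places 5, 2 and 4 from the lowest of the 30 miRNAs, and the median of the other 27 was -0.50. The pair-fed library of day 1 was higher than its other 2 by 2.25 for miR-143, 1.48 for miR-145 and 0.65 for miR-143*, at places 6, 19 and 24 from the highest, where the other 27 had a median of 1.82. The members thus lay low among the list in the ethanol-fed library of day 1, while in the pair-fed library of day 1 miR-145 and miR-143* lay below the list's median. Both offsets enter the difference that selected the list, and they are given with no test.

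The same offsets were set beside those of 3 other families of the list, of which miR-195 was added after its values were seen. miR-199a-3p, miR-199a-5p and miR-214, known from mesenchymal cells including hepatic stellate cells, were higher in the pair-fed library of day 1 by 2.80, 3.10 and 3.13, more than any of the 3 members. In the ethanol-fed library of day 1 they were at -2.40, -1.46 and -0.01, so that only miR-199a-3p reached the range of the members. miR-126 and miR-126*, the 2 arms of an endothelial precursor, had 2.38 and 1.97 in the pair-fed and -1.36 and -1.98 in the ethanol-fed library of day 1. miR-195, miR-195* and miR-497, from a common cluster, had 2.10, 1.98 and 1.82 in the pair-fed library and -0.60, -1.51 and -1.42 in the ethanol-fed library. Without day 1 of both groups, miR-126 (-0.59), miR-126* (-0.61), miR-195 (-0.61) and miR-195* (-0.64) were still lower in ethanol-fed libraries. By the same mean, miR-199a-3p (-0.06), miR-199a-5p (-0.08), miR-214 (0.02) and miR-497 (-0.13) were as near to 0 as the members. For miR-214 the 0.02 is the mean of large opposite differences, -2.08 on day 2 and 2.13 on day 3. The members also had opposite signs on these days, with smaller differences.

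**Figure D4:**
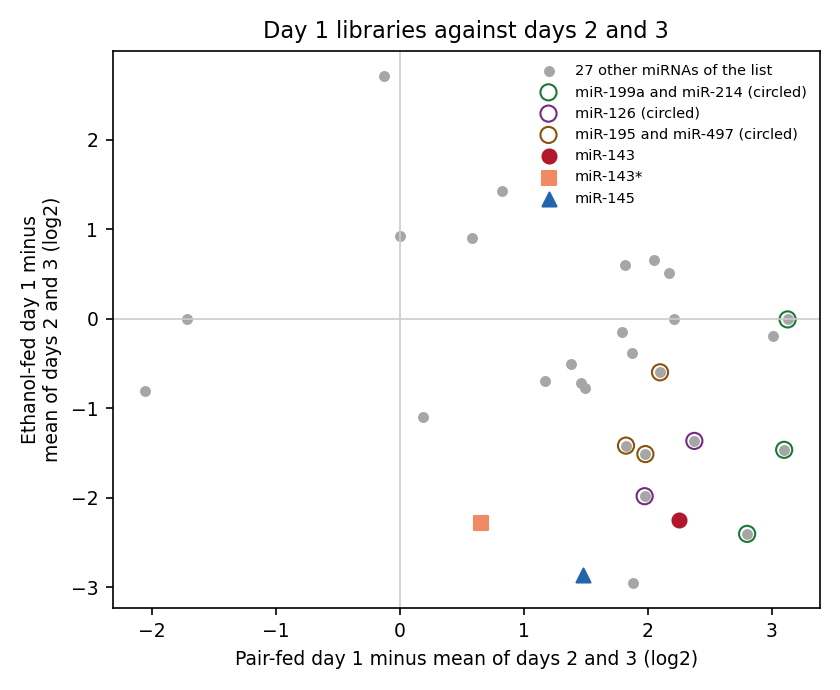
Offset of the pair-fed library of day 1 from the mean of days 2 and 3 (x axis, log2) against the same offset of the ethanol-fed library of day 1 (y axis, log2), 1 point for each of the 30 miRNAs of the list. Coloured symbols are the members and circles mark the families of miR-199a, miR-126 and miR-195. The members lie between -2.86 and -2.25 on the y axis and between 0.65 and 2.25 on the x axis.

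To compare the members library by library, each was centred on its own mean over the 6 libraries. They lay within 0.22 of each other in the pair-fed library of day 3, within 0.28 in the ethanol-fed library of day 2 and within 0.51 in the ethanol-fed library of day 3. The range was 0.68 in the ethanol-fed library of day 1, 0.80 in the pair-fed library of day 2 and 1.24 in the pair-fed library of day 1. The widest gap was that between the 2 arms of Mir143 in the pair-fed library of day 1, where miR-143 was 1.24 above miR-143*, and in the pair-fed library of day 2 it was 0.80 below it. In the other 4 libraries these arms differed by 0.08 to 0.51.

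Over the 6 libraries, the median absolute gap was 0.33 between the arms of Mir143, 0.41 between miR-143 and miR-145 and 0.19 between miR-143* and miR-145. Across all 435 pairs of the list the median of this gap was 0.70, and 13.8% of pairs had a smaller gap than the 2 arms of Mir143, 22.5% a smaller one than miR-143 and miR-145, and 3.22% a smaller one than miR-143* and miR-145. By this measure miR-143* was nearer to the product of the neighbouring hairpin than to its own partner arm. The order of the pairs depended on the measure. By the root mean square gap, miR-143 and miR-145 were nearest (0.43, with 8.05% of pairs smaller). miR-143* and miR-145 came next (0.46, 9.43%), and the arms of Mir143 were furthest apart (0.65, 24.6%). For the 6 precursors with both arms in the list, the median absolute gap between arms ranged from 0.20 for miR-199a to 0.85 for miR-455. miR-455* held the same lowest value in all 3 ethanol-fed libraries, and miR-152* in those of days 2 and 3. The gaps of these precursors therefore rest in part on tied values. A lowest possible level reached in 1 library leaves no tie, and its part in the gaps of miR-143* was not tested. All pairs share the same 6 libraries and the same selection, so these values are a description.

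The 5 miRNAs of the list with the smallest root mean square difference from the mean profile of the members were miR-455 (0.32), miR-497 (0.45), miR-195* (0.49), miR-126* (0.50) and miR-199a-3p (0.60), over 6 libraries. The members themselves were at 0.21 for miR-145, 0.33 for miR-143 and 0.35 for miR-143*, so that miR-455 lay within their range, although the mean is made from the members. Like them, miR-455 was highest in the pair-fed library of day 1 (1.97, minus its own mean), lowest in the ethanol-fed library of day 1 (-2.68) and above 0 in the ethanol-fed library of day 2 (0.51). The other 4 were below their own mean in the ethanol-fed library of day 2, at -0.29 to -0.12, where the members were at 0.43 to 0.71. The same 5 miRNAs came first when ranked by Pearson correlation. miR-455 and miR-143* had the same day 2 difference (0.376395), and the part of few reads in their likeness was not tested.

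**Figure D5:**
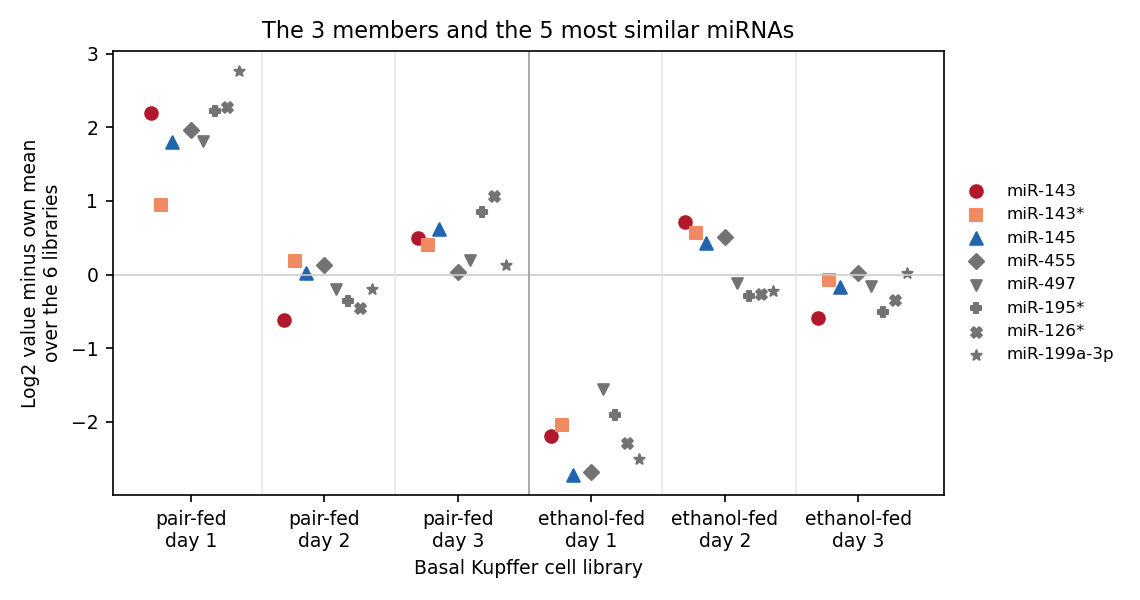
Log2 value minus the mean of each miRNA over the 6 libraries (y axis) in each basal library (x axis) for the 3 members (coloured) and the 5 miRNAs nearest to their mean (grey). In the ethanol-fed library of day 2 the members lie at 0.43 to 0.71 and miR-455 at 0.51, and the other 4 lie between -0.29 and -0.12.

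The rest of the list was set beside the members in the same libraries. The pair-fed library of day 1 was the highest of the 6 in 22 of the other 27 miRNAs, and the ethanol-fed library of day 1 was the single lowest in 12 of them and above the mean of its days 2 and 3 in 7. In the pair-fed library of day 1 the median of the other 27 was 1.85 above their own means, against a mean of 1.65 for the members. In the ethanol-fed library of day 1 the median of the other 27 was -1.01 and the mean of the members -2.32, and in the ethanol-fed library of day 2 these were -0.57 and 0.57. Relative to the median of the other 27 in each library, the difference between the diets was -0.25 for miR-143, -0.51 for miR-145 and 0.09 for miR-143*. This step also removes what the members share with a list that was selected for being lower. None of the members had a lowest value shared by several libraries, as 7 of the 30 miRNAs did. A shared value cannot show a lowest possible level that 1 library alone reaches. Whether a member, such as miR-143* in the ethanol-fed library of day 1, was at that level was not tested.

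Lists of miRNAs known from particular cell types were matched to the table by number, with each arm as its own product. Of 13 entries of the mesenchymal list, 6 were in the table, as 9 products that include the 3 members, with a median difference of -1.38 (range -2.30 to -1.02) against -1.30 over all 30 miRNAs. Without day 1 these 9 were between -2.41 for miR-152*, whose ethanol-fed libraries of days 2 and 3 shared its lowest value, and 0.12 for miR-143. Of 5 endothelial entries, 2 were in the table, as 3 products (miR-126, miR-126* and miR-10a-5p) with differences of -1.93 to -1.29, and of -0.61 to -0.56 without day 1. Of 5 hepatocyte, 7 leukocyte and macrophage, 3 erythroid and 7 epithelial entries, 0 were in the table, which says nothing of their levels because only miRNAs lower in ethanol-fed libraries are listed. The labelled cell type could therefore not be checked against macrophage miRNAs here, and the part that RNA of endothelial or mesenchymal cells has in the members' values was not tested.

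Depth was reported for each library only, and the counting error of a miRNA's value was not worked out. Some miRNAs had equal differences, such as 0.376395 on day 2 for both miR-143* and miR-455. How few reads lie behind such values was not analysed here. The 6 basal libraries had 2865329 to 6151744 reads, of which 45.5% to 61.9% aligned. The 2 day 1 libraries, at opposite ends of the members' values, were alike in depth: 4596369 reads with 45.5% aligned and 24.8% too short to align in the pair-fed library, and 4958302 reads with 50.4% aligned and 22.6% too short in the ethanol-fed library. The part of depth in the members' values was not tested.

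The alignment report also counts alignments per chromosome, a measure that played no part in choosing the members. Alignments outnumber aligned reads (2909963 against 2090411 in the pair-fed library of day 1), so a read can count more than once. RefSeq places 12 of 419 rat miRNA hairpins on chromosome 18, among them Mir143, Mir145 and Mir122, the precursor of the main hepatocyte miRNA. Chromosome 18 held 2.85%, 3.81% and 4.42% of alignments in the pair-fed libraries of days 1 to 3, and 4.15%, 3.55% and 3.05% in the ethanol-fed libraries. The groups overlapped, with means of 3.70% ± 0.79 (SD, n = 3) and 3.58% ± 0.55 (SD, n = 3), and the difference of -0.12 percentage points did not pass an exact permutation test, two-sided (p = 0.8). With 3 libraries in each group this test cannot go below 0.1. With the same alignments divided by all reads, a ratio of unlike counts, the difference had the opposite sign, 0.12 percentage points (exact permutation p = 0.9). No direction is therefore read from the difference. The pair-fed library of day 1, the highest of the 6 in all 3 members, had the lowest share on chromosome 18 by either denominator. The ethanol-fed library of day 1, the lowest in all 3, had the highest share of alignments of its group. Divided by all reads, its chromosome 18 alignments were at 2.89% against 3.09% on day 2. These alignments come from the whole chromosome in rn4, and how many of them belong to the members was not analysed here.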

How the data were processed

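Small RNA libraries were made by the authors with the TruSeq kit and sequenced on a HiSeq instrument. HTSeq and DESeq are tools, and rn4 the build, in the submitters' processing notes. How the libraries were scaled is not given in the sources used. The authors deposited, for miRNAs kept at a fold change of at least 2, normalized log2 values per library, with a median of 0 in each of the 30 rows. Their fold changes and p-values, also deposited, were not used. The deposited alignment report holds whole numbers of reads and of alignments.

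The members and lists were chosen with earlier results of these data known. Named beside the members were the 5 miRNAs nearest to them by root mean square difference and examples from the cell type lists. miR-195, miR-455* and miR-541 fall outside this rule and were named after their values were seen. limma 3.58.1 (R 4.3.3) was fitted across the 30 miRNAs on the deposited log2 values, with Benjamini-Hochberg adjustment, no filter and no pseudocount, and was tested on simulated data. The chromosome 18 shares were compared by an exact permutation test (scipy 1.17.1). Hairpins were folded with RNAfold 2.7.2, and sequences are from RefSeq (GRCr8), where 19 of the 30 rows were matched by the order of both arms. Other steps used Python 3.11.15, pandas 2.3.3, numpy 2.4.6 and matplotlib 3.10.9. Replicate numbers are days in the labels. The labels do not say whether libraries of the same day were prepared together, and such libraries were taken as pairs by day number. Their deviations from the group means correlated across 30 miRNAs at -0.28, -0.39 and -0.35 on days 1, 2 and 3, and miRNAs are not independent replicates.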

Additional observations from a re-analysis of the deposited data

How the results depend on the processing

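With libraries or days left out, the difference between the diets ranged from -2.73 to 0.12 for miR-143, from -1.74 to -0.05 for miR-143* and from -2.66 to -0.19 for miR-145, and the number of members whose groups did not overlap from 0 to 3 (3 without day 2 of both groups). The difference of miR-143 was above 0 only without day 1 of both groups (0.12), and that of miR-143* only relative to the library median of the other 27 miRNAs (0.093). The ratio of linear means gave -1.39, -0.72 and -1.34, and group medians -1.08, -0.48 and -0.79, for miR-143, miR-143* and miR-145. With the day as a replicate block the mean differences are by construction the same (-1.38, -1.03 and -1.63, SEM 1.65, 1.01 and 1.49), and limma called 0 of 30 miRNAs, with 1 at an unadjusted p under 0.05. It also called 0 without any single library, without moderation of the variance and relative to the library median, so the block changed no call. The difference in the chromosome 18 share turned from -0.12 to 0.12 percentage points when the alignments were divided by all reads. As a share of alignments it was also above 0 without the pair-fed (0.25) or the ethanol-fed library of day 3 (0.15). The alternatives for this share, the overlap without a day, the range over members and the day 1 offsets were chosen after seeing the data. Reads per miRNA were not analysed here, and how depth limits each value was not tested.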
